A study of Mus musculus with 2 samples.

Results

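The levels of 9 genes of metal handling were measured in single-cell RNA sequencing (scRNA-seq) libraries of mouse cerebral cortex: *Ftl1*, *Fth1*, *Trf*, *Tfrc*, *Cp*, *Hmox1*, *Mt1*, *Mt2* and *Mt3*. They were chosen by symbol, and each of the 9 symbols matched a single gene among the 55450 genes of the count tables. Iron enters cells bound to transferrin through the transferrin receptor, is stored inside ferritin shells, and leaves cells with the help of ferroxidases. Heme oxygenase releases iron from heme. Metallothioneins are small cysteine-rich proteins that bind zinc and copper. In the brain, oligodendrocytes (OLs) are known for their high iron content and need iron for making myelin, microglia take up iron from dying cells and red blood cells, and astrocytes are known as a main site of metallothioneins.

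One control library and 1 library of cerebral white matter injury (WMI) were compared, both from the cortex of C57BL/6 mice labelled as 2 weeks old. In this model the right common carotid artery is ligated and the pups are kept under low oxygen, which the labels place at postnatal day 7 for 1 h, with collection at postnatal day 14 from the ligated side of WMI mice and the same side of the control group. The paper gives an earlier day for surgery and for sampling, a longer hypoxia, and cells dissociated with trypsin where the labels describe nuclei. It speaks of control brains, of sham hemispheres and of a control side, so that the origin of the control tissue was not settled here. More replicates are described in the paper than the single library per group analysed here, so that no test was possible, no difference has a replicate check, and the variation between mice is not in any interval below.

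After filtering, 8755 control cells (median 4313 UMIs) and 7571 WMI cells (median 4996 UMIs) remained. A UMI, or unique molecular identifier, marks 1 captured RNA molecule. Of the kept barcodes, 26 were shared by both libraries. Clusters were named from marker genes and are called "-like". The comparison used 7 classes, given here with the control cells first: OPC-like (oligodendrocyte precursor cells, 300 and 434), pre-OL-like (150 and 437), mature OL-like (94 and 48), astrocyte-like (500 and 592), myeloid-like (433 and 1130), excitatory neuron-like (3982 and 2075) and inhibitory neuron-like cells (473 and 379). A further 8 clusters stayed unnamed and held 30.6% of control and 28.2% of WMI cells. Of the clusters, 6 took 90% or more of their cells from 1 library. Among them was myeloid-like cluster 4, with 21 control and 1043 WMI cells, so that most myeloid-like cells of the libraries came from different clusters (cluster 11 held 412 control and 87 WMI cells). Another was the shallow excitatory neuron-like cluster 2, with 1160 control and 12 WMI cells. The WMI library also held 107 cells with markers of striatal projection neurons, of which the control library held 1, although the tissue is labelled cortex. Control cells with sex-linked transcripts were male (6502 male and 0 female cells), whereas the WMI library held 1959 male cells, 2258 female cells and 2540 cells with transcripts of both sexes, of which the control library had 5. Sex and condition therefore cannot be told apart, and the cells called male in the WMI library come from a mixed library.

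Levels are given as CPM, the usual scaled count, here the UMIs of a gene over all UMIs in the cells of a class. Brackets hold exact 95% intervals, which cover counting error only. A gene was called past 2-fold when its log2 ratio was at least 1 in either direction with at least 100 UMIs over both libraries in that class. The plot of levels by class shows all 9 genes.

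**Figure D1:**
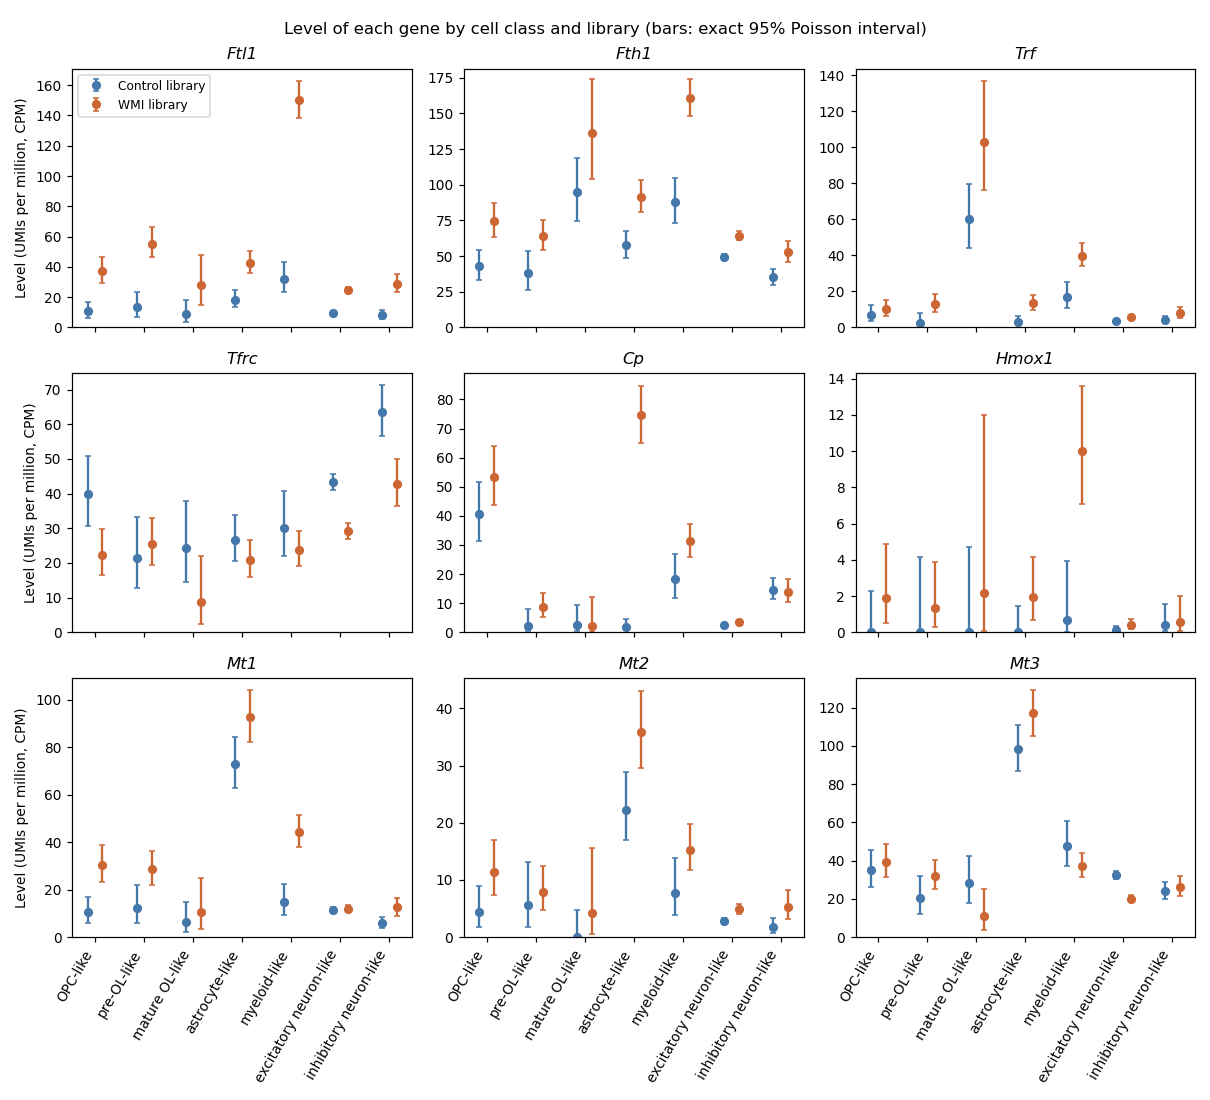
Level of each of the 9 genes in CPM (vertical axis) in the 7 cell classes (horizontal axis), with control and WMI libraries as separate points and exact 95% Poisson intervals as bars. *Ftl1* was higher in the WMI library in every class, *Cp* was 1.96 CPM in control and 74.5 CPM in WMI astrocyte-like cells, and the metallothioneins were highest in astrocyte-like cells.

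The sequences that set ferritin and the transferrin receptor apart are the iron responsive elements (IREs), hairpins in the untranslated regions (UTRs) of their mRNAs. When iron is scarce, the iron regulatory proteins encoded by *Aco1* and *Ireb2* bind them, which blocks translation of ferritin mRNA and protects *Tfrc* mRNA from decay. The counts here measure RNA, so that control of ferritin translation is not visible in them. The elements are shown because they place *Ftl1* and *Fth1* on one side of this switch and *Tfrc* on the other. They were found in GENCODE M21 transcripts on GRCm38 as a C, 5 bases, the loop CAGTGN and 5 bases that pair with the first 5. Capitals mark the loop. Both ferritin elements lie in the 5′ UTR, *Fth1* at chr19:9982733-9982759 on the plus strand and *Ftl1* at chr7:45459780-45459806 on the minus strand. The 4 elements of *Tfrc* lie in its 3′ UTR on the plus strand, at chr16:32631220-32631246, chr16:32631599-32631625, chr16:32631664-32631690 and chr16:32631711-32631737.
Fth1 5′ UTR: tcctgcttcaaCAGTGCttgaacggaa
Ftl1 5′ UTR: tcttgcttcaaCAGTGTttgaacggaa
Tfrc 3′ UTR, element 1: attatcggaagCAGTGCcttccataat
Tfrc 3′ UTR, element 2: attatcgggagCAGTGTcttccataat
Tfrc 3′ UTR, element 3: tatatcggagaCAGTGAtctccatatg
Tfrc 3′ UTR, element 4: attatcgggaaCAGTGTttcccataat
Such a match was found in the 5′ UTR of 31 of 20899 genes (0.148%) and in the 3′ UTR of 129 of 21685 genes (0.595%), and a match is a description of letters only.

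*Ftl1* (ENSMUSG00000050708, chr7:45457944-45459884) encodes the ferritin light chain, which helps the iron core to form. It was higher in the WMI library in 7 of 7 classes, each with the interval of the ratio above 0. In myeloid-like cells it stood at 32.3 CPM [23.7 to 43.1] in control and 150 CPM [138 to 163] in WMI (46 and 588 UMIs), a log2 ratio of 2.22 [1.78 to 2.68]. In pre-OL-like cells it stood at 13.5 and 55.4 CPM (log2 ratio 2.04 [1.19 to 3.03]). In inhibitory neuron-like cells it stood at 8.16 and 28.9 CPM (1.82 [1.27 to 2.40]). In each of these classes the intervals of the libraries did not overlap.

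In excitatory neuron-like cells *Ftl1* stood at 9.28 and 24.9 CPM (log2 ratio 1.42 [1.22 to 1.63]), and in astrocyte-like cells at 18.4 and 42.8 CPM (1.22 [0.73 to 1.73]). Without the clusters that came almost wholly from 1 library, the ratio of excitatory neuron-like cells was 1.97, and with equal weight for each cell it was 0.86, below 2-fold. In 10 of 10 excitatory neuron-like clusters with at least 50 cells of each library *Ftl1* was higher in WMI, by log2 ratios of 1.12 to 2.24, and 9 of the intervals lay above 0. Only clusters 1 and 6 passed the floor of 100 UMIs. All these clusters come from the same 2 libraries, so that they do not repeat the comparison. OPC-like cells showed 10.6 and 37.1 CPM (1.81 [1.04 to 2.66]), and mature OL-like cells 8.95 and 28.0 CPM (1.65 [0.21 to 3.21]), but with 17 and 78 UMIs and with 7 and 13 UMIs these 2 classes were under the floor of 100. Within myeloid-like cluster 11 alone, *Ftl1* was 33.4 CPM in control and 115 CPM in WMI cells (1.79 [1.15 to 2.42], 45 and 44 UMIs). The light chain was thus also higher within the myeloid-like cluster that held most control cells, although only 1 of the 9 genes passed the floor there and 0 were called, where 4.64% of all genes were called higher and 2.96% lower.

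*Ftl1* was called higher in 5 classes: pre-OL-like, astrocyte-like, myeloid-like, excitatory neuron-like and inhibitory neuron-like cells. Over all genes that passed the floor, the share called higher was 1.73% in pre-OL-like, 4.13% in astrocyte-like, 6.99% in myeloid-like, 1.29% in excitatory neuron-like and 1.62% in inhibitory neuron-like cells. The share of myeloid-like cells with an *Ftl1* UMI was 9.70% in control and 31.9% in WMI at nearly equal median depths (3124 and 3106.5 UMIs), and 3.70% and 11.9% after each cell was thinned to 1000 UMIs. In excitatory neuron-like cells the thinned shares were 1.58% and 3.33%.

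Free RNA from other cells can add UMIs to every class, and its part in the *Ftl1* difference was not tested. Markers of activated myeloid cells, 11 genes that include *Gpnmb* and *Spp1*, were also higher in every class of the WMI library. Their summed level stood at 44.8 to 103 CPM in control and 273 to 505 CPM in WMI over the 6 classes that are not myeloid, and at 296 and 2453 CPM in myeloid-like cells. In control OPC-like cells 5 of the 11 markers were at 0, and in WMI OPC-like cells 0. For each 100 UMIs of these markers the WMI library held 6.13 *Ftl1* UMIs in myeloid-like cells and 7.34 to 11.2 in the other 6 classes, and the control library 10.9 in myeloid-like cells and 14.4 to 26.7 in the others. Mitochondrial UMIs moved with the library too, at 0.118% to 0.302% of UMIs in the control classes and 0.386% to 1.08% in the WMI classes. UMIs of ribosomal protein genes made up 0.106% to 0.309% in the control classes and 0.131% to 0.485% in the WMI classes, with a higher share in WMI in each class. The part of RNA quality in the ferritin differences was not tested. Within the WMI library, OPC-like cells under 1% mitochondrial UMIs had 30 CPM of *Ftl1* and those above had 48.7 CPM, against 10.7 CPM in control OPC-like cells under 1%. For WMI myeloid-like cells these values were 112 and 248 CPM, against 32.4 CPM in control under 1%. Their *Fth1* stood at 131 and 234 CPM, against 86.4 CPM.

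*Fth1* (ENSMUSG00000024661, chr19:9980598-9985098) encodes the ferritin heavy chain, the subunit with ferroxidase activity. It was higher in the WMI library in 7 of 7 classes as well, by less than 2-fold in each. In myeloid-like cells it stood at 87.9 CPM [73.2 to 105] and 161 CPM [148 to 174], which gave a log2 ratio of 0.87 [0.59 to 1.16]. Within myeloid-like cluster 11 it stood at 86.1 and 113 CPM (116 and 43 UMIs). There the ratio was 0.39 [-0.15 to 0.90], an interval that included 0. For OPC-like cells the values were 42.9 and 74.7 CPM (0.80 [0.38 to 1.23]) and for pre-OL-like cells 38.1 and 64.2 CPM (0.75 [0.21 to 1.34]). Astrocyte-like cells had 57.6 and 91.4 CPM (0.67 [0.37 to 0.96]) and inhibitory neuron-like cells 35.2 and 52.7 CPM (0.58 [0.27 to 0.89]). Mature OL-like cells had the highest control level of the 7 classes, 94.7 CPM, and 136 CPM in WMI (0.52 [0.01 to 1.02]). The excitatory neuron-like ratio of 0.38 [0.28 to 0.48], from 49.3 to 64.2 CPM, was -0.20 when each cell had equal weight and 0.82 without the clusters of 1 library. Shallow cluster 2 of the control library (median 1739.5 UMIs) held *Fth1* at 212 CPM and *Ftl1* at 45.9 CPM, the highest control values among clusters with at least 50 control cells for both genes.

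Because the subunits differed in the size of their ratios, their mix differed between the libraries. Of all ferritin UMIs, unnamed clusters included, *Ftl1* made up 17.8% [16.6 to 19.1] among control cells and 41.0% [39.9 to 42.1] among WMI cells. In the unnamed clusters, which held 25% of control and 47.8% of WMI *Ftl1* UMIs, it made up 17.8% and 49.9%. In myeloid-like cells it made up 26.9% [20.4 to 34.2] and 48.4% [45.5 to 51.2], and in pre-OL-like cells 26.1% [14.3 to 41.1] and 46.3% [40.3 to 52.4]. In mature OL-like cells the share was 8.64% and 17.1%, the lowest of the 7 classes in both libraries. Intervals of the 2 libraries did not overlap in myeloid-like, excitatory neuron-like (15.9% and 27.9%) and inhibitory neuron-like cells (18.8% and 35.4%), nor over all cells. Several ferritin pseudogenes resemble these genes, and reads shared with them could be split or lost in counting. *Ftl1-ps1* had 175 control and 170 WMI UMIs and *Ftl2-ps* 62 and 78, and *Fth-ps2* had 59 and 72, so the mix is uncertain to that degree.

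**Figure D2:**
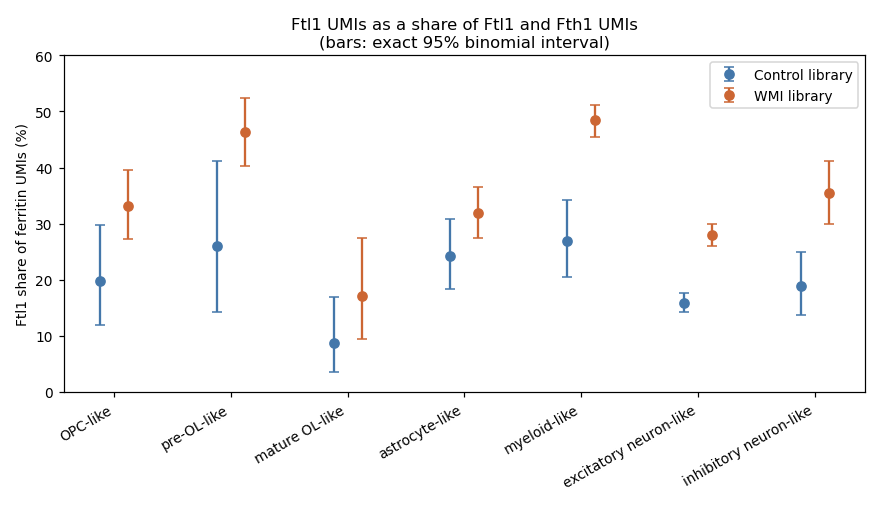
Share of *Ftl1* among the summed UMIs of *Ftl1* and *Fth1*, in percent (vertical axis), by cell class (horizontal axis) and library, with exact 95% binomial intervals as bars. The light chain share was higher in the WMI library in each of the 7 classes, from 26.9% to 48.4% in myeloid-like cells and from 8.64% to 17.1% in mature OL-like cells.

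*Trf* (ENSMUSG00000032554, chr9:103204001-103230444) encodes transferrin, the iron carrier that oligodendrocytes make in the brain. Among the 7 classes its highest control level was in mature OL-like cells, 60.1 CPM [44.2 to 79.9], apart from 16.9 CPM [10.8 to 25.1] in myeloid-like cells, the next class. In the WMI library the 48 mature OL-like cells had 103 CPM [76.2 to 137]. Control and WMI intervals of mature OL-like cells overlapped in *Trf* level, and the ratio of 0.78 [0.17 to 1.39] rested on 47 control and 48 WMI UMIs. Among male mature OL-like cells the ratio had the other sign, at 59.1 CPM in control and 50.5 CPM in WMI (-0.23 [-1.52 to 0.88], 44 and 8 UMIs). In myeloid-like cells *Trf* was called higher, at 16.9 CPM in control and 39.9 CPM [33.9 to 46.7] in WMI, a log2 ratio of 1.24 [0.62 to 1.93]. Within myeloid-like cluster 11 it stood at 17.1 and 39.3 CPM (23 and 15 UMIs).

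Astrocyte-like cells held 8 control and 42 WMI UMIs of *Trf*, 3.14 and 13.4 CPM (2.10 [0.99 to 3.40]), and pre-OL-like cells 2 and 29 UMIs (2.51 [0.52 to 5.62]), both under the floor. Neuron-like cells had the lowest WMI levels, 5.56 CPM in excitatory and 7.77 CPM in inhibitory neuron-like cells, against 3.74 and 4.08 CPM in control. The astrocyte-like control value, from 8 UMIs, is near those at which a few UMIs decide the ratio, and the inhibitory neuron-like values rested on 19 and 28 UMIs. The excitatory neuron-like values rested on 124 and 131 UMIs, over the floor, and differed by less than 2-fold.

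*Tfrc* (ENSMUSG00000022797, chr16:32608920-32632794) encodes transferrin receptor 1, which takes up iron-loaded transferrin. It was lower in the WMI library in 6 of 7 classes, and in 3 of them the interval lay below 0. None of the 9 genes was called lower in any of the 7 classes. In OPC-like cells *Tfrc* stood at 39.8 CPM [30.7 to 50.9] in control and 22.4 CPM [16.4 to 29.7] in WMI (log2 ratio -0.83 [-1.41 to -0.27]). In inhibitory neuron-like cells, which had the highest control level of the 7 classes, it stood at 63.5 and 42.7 CPM (-0.57 [-0.86 to -0.29]), and in excitatory neuron-like cells at 43.2 and 29.2 CPM (-0.57 [-0.70 to -0.43]). The excitatory control level included cluster 2, which came almost wholly from the control library and had *Tfrc* at 95.1 CPM. Over the 10 excitatory neuron-like clusters with at least 50 cells of each library, the median ratio was -0.36. Of these ratios 8 were below 0, with 4 intervals below 0, and 2 were above 0. Among male cells the OPC-like ratio was -0.38 [-1.24 to 0.41].

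Astrocyte-like cells had 26.7 and 20.8 CPM of *Tfrc* and myeloid-like cells 30.2 and 23.8 CPM, with intervals of the ratio that included 0. The lowest ratio was that of mature OL-like cells, at 24.3 and 8.62 CPM (-1.5 [-3.51 to 0.09], 19 and 4 UMIs). Pre-OL-like cells were the exception to the direction, with 21.3 and 25.5 CPM (0.26 [-0.51 to 1.09]). Endothelial-like cells, which carry transferrin across the blood-brain barrier, had far more *Tfrc* than any of the 7 classes, 742 CPM in 20 control cells and 525 CPM in 15 WMI cells, and their ratio of -0.50 [-1.16 to 0.14] rested on 55 and 34 UMIs. Over the 7 classes, the share of genes called lower was 0.351% in OPC-like, 1.05% in pre-OL-like, 2.69% in mature OL-like, 1.04% in astrocyte-like, 1.10% in myeloid-like, 2.27% in excitatory neuron-like and 0.486% in inhibitory neuron-like cells.

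**Figure D3:**
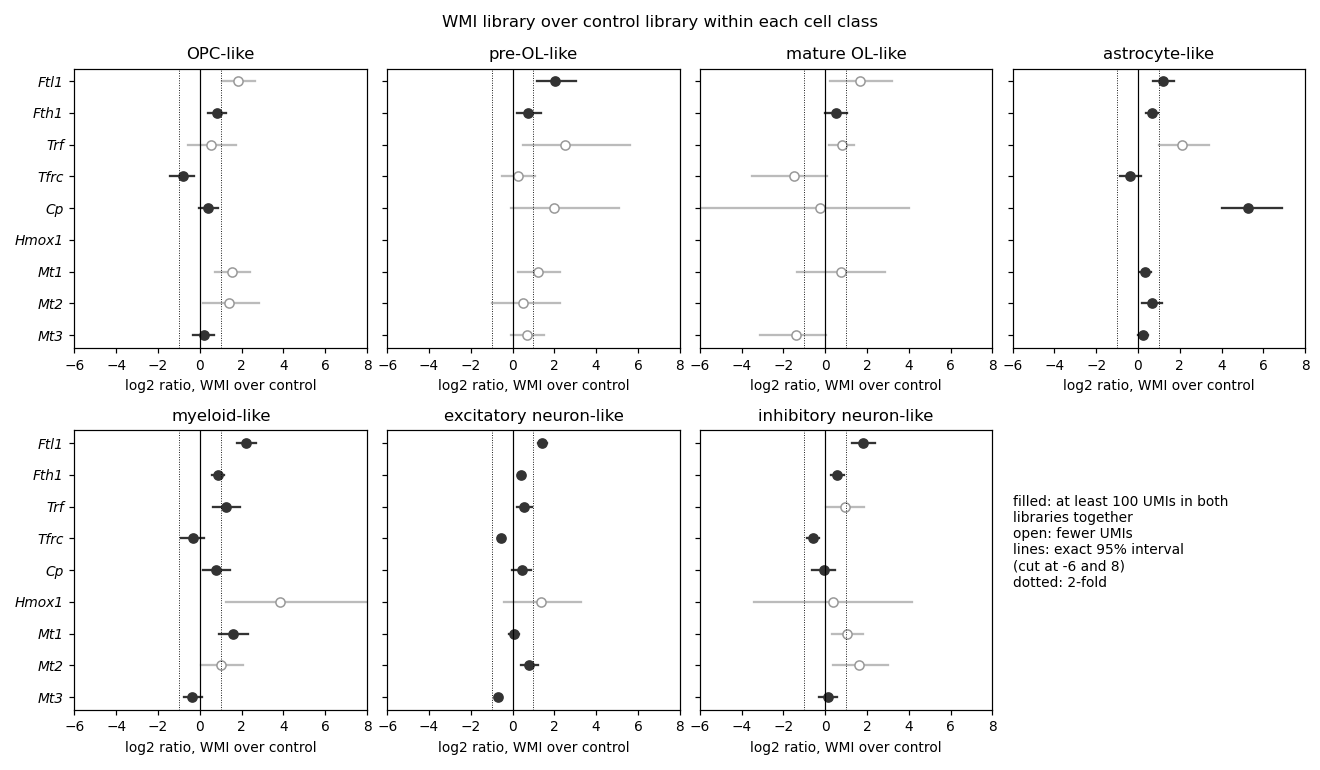
Log2 ratio of WMI to control (horizontal axis) for each of the 9 genes in the 7 classes, with exact 95% intervals as bars and 0 meaning equal levels. Ferritin ratios lay above 0 in all 7 classes, *Tfrc* ratios lay below 0 in 6 of 7, and the *Cp* ratio of astrocyte-like cells, 5.25, was the largest of all.

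*Cp* (ENSMUSG00000003617, chr3:19957054-20009145) encodes ceruloplasmin, the copper ferroxidase that oxidizes iron as it leaves the cell and that astrocytes carry in a membrane-anchored form. In astrocyte-like cells it differed between the libraries more than any other of the 9 genes in any class. Control astrocyte-like cells held 5 UMIs, 1.96 CPM [0.636 to 4.57], and WMI astrocyte-like cells 233 UMIs, 74.5 CPM [65.2 to 84.7], a log2 ratio of 5.25 [4.00 to 6.88]. The ratio lay between 4.11 and 5.28 over 11 other ways of processing, the lowest among male cells, where 4 control and 25 WMI UMIs fell under the floor. Some of these ways could hardly move it. Leaving out the floor cannot change a ratio, and the size factors shifted it by -0.10 and -0.11. With resolution 0.4 the class again held 500 and 592 cells. In WMI astrocyte-like cells, female cells had 66.2 CPM and male cells 31.4 CPM (log2 ratio 1.08 [0.39 to 1.80], 65 and 25 UMIs).

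The *Cp* transcripts of WMI astrocyte-like cells sat in a minority of the cells. In control, 5 of 500 cells had a UMI (1.00% [0.325 to 2.32]), and in WMI 78 of 592 (13.2% [10.6 to 16.2]), at median depths of 4791 and 4850 UMIs. After thinning to 1000 UMIs the shares were 0 of 500 cells, with an upper limit of 0.735%, and 5.74%. In excitatory neuron-like cells, a class not known for ceruloplasmin, 2.13% and 3.90% of cells had a UMI at depths of 7777 and 9662. Of the 78 positive WMI cells, 41 had 1 UMI, 12 had 2, 14 had 3 to 5 and 11 had more than 5, with a highest value of 31 (13.3% of the 233 UMIs). No positive control cell had more than 1.

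Markers of other *Cp*-rich cells were compared between WMI astrocyte-like cells with and without *Cp* UMIs. Fibroblast markers summed to 66.2 CPM with *Cp* and 77.4 CPM without, and choroid plexus markers to 11 and 8.60 CPM. Astrocyte markers summed to 10287 and 11621 CPM, at median depths of 5010.5 and 4756.5 UMIs. The part of other cell types in these *Cp* UMIs was not tested. Astrocyte-like cells of both libraries formed 1 cluster.

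**Figure D4:**
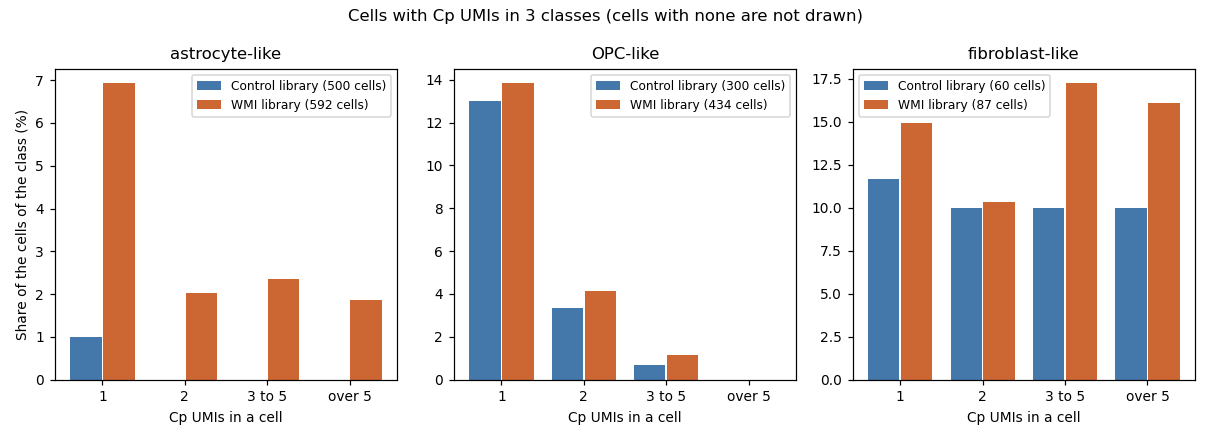
Share of cells in percent (vertical axis) with 1, 2, 3 to 5 or more than 5 *Cp* UMIs (horizontal axis) in astrocyte-like, OPC-like and fibroblast-like cells of each library, where cells with none are not drawn. Of the 500 control astrocyte-like cells, 5 held 1 UMI each and none held more, whereas 78 of 592 WMI cells held *Cp* UMIs and 11 held more than 5.

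Fibroblast-like cells had the highest *Cp* level of any class in both libraries, 315 CPM in 60 control cells and 840 CPM in 87 WMI cells, a log2 ratio of 1.41 [1.10 to 1.74] from 106 and 357 UMIs. OPC-like cells came next in control, at 40.5 CPM [31.2 to 51.6] and 53.3 CPM [43.9 to 64.1] in WMI (0.40 [-0.06 to 0.86]). Myeloid-like cells had 18.3 and 31.2 CPM (0.77 [0.15 to 1.44]), but in cluster 11 the ratio was -0.27. Inhibitory neuron-like cells had 14.6 and 13.9 CPM, and excitatory neuron-like cells 2.59 and 3.52 CPM. Of the 68 control and 50 WMI *Cp* UMIs of inhibitory neuron-like cells, cluster 15 held 59 and 41. It stood at 45.2 and 26.3 CPM (-0.78 [-1.39 to -0.18]), a control level above that of OPC-like cells. The ratios of inhibitory neuron-like clusters 14 and 20 were 1.16 and 0.20, from few UMIs and with intervals that included 0. Of all *Cp* UMIs in the library, astrocyte-like cells held 1.19% in control and 21.5% in WMI.

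*Hmox1* (ENSMUSG00000005413, chr8:75093621-75100589) encodes heme oxygenase 1, the inducible enzyme that breaks heme into iron, biliverdin and carbon monoxide. It was the scarcest of the 9 genes, with 11 UMIs in the control and 88 in the WMI library (0.195 and 1.63 CPM), and was under the floor throughout. Control OPC-like, pre-OL-like, mature OL-like and astrocyte-like cells held 0 UMIs, and the WMI cells of these classes held 4, 3, 1 and 6. Myeloid-like cells held 1 UMI in control and 39 in WMI (0.703 CPM [0.0178 to 3.92] and 9.98 CPM [7.09 to 13.6]), a log2 ratio of 3.83 [1.26 to 9.17]. In control 1 of 433 cells (0.231%) and in WMI 31 of 1130 cells (2.74% [1.87 to 3.87]) had a UMI, against 0.126% and 0.434% of excitatory neuron-like cells. Of the 39 WMI UMIs, 38 were in cluster 4, whose 21 control cells held 0, and in cluster 11 each library held 1. Hemoglobin transcripts, a sign of red blood cells, stood at 1.72 to 5.62 CPM in the 7 control classes and 3.95 to 10.5 CPM in the WMI classes, highest in myeloid-like cells, and their part in these values was not tested.

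The metallothionein genes *Mt3*, *Mt2* and *Mt1* lie in this order on the plus strand of chromosome 8, 18517 bases and 5513 bases apart. Metals switch on *Mt1* and *Mt2* through MTF1, which binds short metal response elements. The gene ends at chr8:94179082-94180327 for *Mt1* (ENSMUSG00000031765), chr8:94172664-94173568 for *Mt2* (ENSMUSG00000031762) and chr8:94152607-94154146 for *Mt3* (ENSMUSG00000031760) were taken from GENCODE M21. The promoters are shown because these elements are the known route by which metals act on *Mt1* and *Mt2*, and *Mt3* is the form known from the brain. The 250 bases before each RefSeq start were read on GRCm38.p6, all on the plus strand (chr8:94178839-94179088, chr8:94172368-94172617 and chr8:94152357-94152606). For *Mt1* and *Mt2* these starts differ from the GENCODE gene starts. The *Mt1* stretch runs into the GENCODE gene and the *Mt2* stretch ends short of it, so that elements nearer the gene can lie outside the stretch. Capitals mark matches to TGCACNC or TGCGCNC on either strand.
Mt1 promoter: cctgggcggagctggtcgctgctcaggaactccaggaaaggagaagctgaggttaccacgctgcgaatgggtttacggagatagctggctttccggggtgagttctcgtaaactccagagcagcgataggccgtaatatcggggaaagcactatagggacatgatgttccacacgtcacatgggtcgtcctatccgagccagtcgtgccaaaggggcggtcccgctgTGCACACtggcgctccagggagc
Mt2 promoter: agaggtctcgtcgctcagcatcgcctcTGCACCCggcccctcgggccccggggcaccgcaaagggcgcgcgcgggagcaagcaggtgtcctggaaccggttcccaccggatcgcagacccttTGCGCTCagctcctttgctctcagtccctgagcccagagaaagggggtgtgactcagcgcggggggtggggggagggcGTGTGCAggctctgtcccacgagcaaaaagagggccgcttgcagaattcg
Mt3 promoter: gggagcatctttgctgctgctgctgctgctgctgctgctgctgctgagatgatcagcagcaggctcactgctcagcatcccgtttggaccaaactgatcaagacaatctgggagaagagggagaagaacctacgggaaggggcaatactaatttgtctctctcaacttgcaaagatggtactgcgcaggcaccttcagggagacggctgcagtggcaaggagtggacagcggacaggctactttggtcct
In these stretches *Mt1* had 1 match, *Mt2* had 3 and *Mt3* had 0. With the 50 bases after the start included, the counts were 3, 4 and 1. Of 32851 promoters of that length, 25.7% held at least 1 match, 1.97% at least 3 and 0.517% at least 4.

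All 3 metallothioneins had their highest level among the 7 classes in astrocyte-like cells of both libraries, with intervals apart from those of the next of these classes. Outside the 7 classes, 15 WMI endothelial-like cells had *Mt3* at 92.7 CPM [34 to 202], which overlapped the astrocyte-like interval. WMI cells of unnamed cluster 5 had *Mt1*, *Mt2* and *Mt3* at 162, 38.8 and 133 CPM, above the WMI astrocyte-like levels. Their *Mt2* level lay within the astrocyte-like interval of [29.5 to 43.1]. Control excitatory neuron-like cluster 2 had *Mt3* at 187 CPM, above control astrocyte-like cells. In astrocyte-like cells *Mt1* stood at 72.9 CPM [62.8 to 84.2] in control and 92.7 CPM [82.3 to 104] in WMI (log2 ratio 0.35 [0.08 to 0.62]). *Mt2* stood at 22.3 and 35.8 CPM (0.68 [0.21 to 1.17]), and *Mt3* at 98.4 and 117 CPM (0.25 [0.01 to 0.48]), with intervals of [86.6 to 111] and [105 to 129]. In astrocyte-like cells all 3 ratios were thus above 0 and below 2-fold.

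The other classes had lower levels. In myeloid-like cells *Mt1* was called higher, from 14.8 CPM [9.14 to 22.6] to 44.3 CPM [37.9 to 51.4] (1.58 [0.93 to 2.31]), while *Mt3* stood at 47.8 and 37.3 CPM (-0.36 [-0.78 to 0.08]) and *Mt2* at 7.73 and 15.3 CPM (0.99 [0.05 to 2.07], 11 and 60 UMIs). In cluster 11 *Mt1* stood at 14.1 and 31.4 CPM (1.15 [-0.02 to 2.27], 19 and 12 UMIs), with an interval that included 0. *Mt2* and *Mt3* had ratios of -1.64 and -1.01 there, where the WMI cells held 1 and 9 UMIs. In OPC-like cells *Mt1* stood at 10.6 and 30.4 CPM (1.52 [0.74 to 2.39], 17 and 64 UMIs), *Mt2* at 4.36 and 11.4 CPM (1.39 [0.13 to 2.85]), and *Mt3* at 34.9 and 39.5 CPM (0.18 [-0.33 to 0.70]). Pre-OL-like cells had ratios of 1.21 [0.28 to 2.28], 0.50 [-0.98 to 2.28] and 0.67 [-0.09 to 1.5] for *Mt1*, *Mt2* and *Mt3*, all under the floor. Differences between the 3 genes were not tested. In inhibitory neuron-like cells *Mt1* stood at 6.01 and 12.5 CPM (1.06 [0.34 to 1.79], 28 and 45 UMIs).

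In excitatory neuron-like cells *Mt3* was lower in WMI, 32.4 and 20.1 CPM (-0.69 [-0.85 to -0.53]). This difference was 0.01 without the clusters of 1 library, since control cluster 2 alone held *Mt3* at 187 CPM. *Mt1* stood at 11.3 and 11.9 CPM (0.08 [-0.15 to 0.30]) in the same class, and at 0.74 without these clusters, and *Mt2* at 2.77 and 4.84 CPM (0.80 and 1.47). Without them *Ftl1*, *Trf* and *Mt2* of 8 were called higher, beside 1.79% of all genes called higher and 1.53% lower. So the sign for *Mt3*, and the size for *Mt1* and *Mt2*, depended on that cluster.

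Counting all 9 genes, the members called higher were *Ftl1*, *Trf* and *Mt1* of the 7 that passed the floor in myeloid-like cells, *Ftl1* and *Cp* of 7 in astrocyte-like cells, and *Ftl1* of 2, 8 and 5 in pre-OL-like, excitatory and inhibitory neuron-like cells. In OPC-like cells 0 of 4 were called and in mature OL-like cells 0 of 1, where 1.15% and 1.90% of all genes were called higher. The median log2 ratio of the genes that passed was 0.87 in myeloid-like and 0.67 in astrocyte-like cells, beside 0.11 and 0.10 over all genes. It was 0.29 in OPC-like, 0.41 in excitatory and 0.13 in inhibitory neuron-like cells, beside 0.04, -0.08 and -0.01. Members under the floor are left out of these medians, *Hmox1* in every class among them. Over all kept cells, unnamed ones included, *Ftl1*, *Trf*, *Cp* and *Mt2* of 8 were called higher, where 5.87% of all genes were called higher and 1.88% lower, and these values mix the difference within classes with the difference in class sizes.

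Within each library the classes were also compared with one another. Against astrocyte-like cells, myeloid-like cells had higher *Ftl1* in WMI (log2 ratio 1.81 [1.54 to 2.09]) and higher *Trf* (1.57 [1.07 to 2.10]), where 16.5% of all genes were called higher. In control 0 members were called higher in this comparison (11.9% of all genes), and *Ftl1* had 0.81 [0.19 to 1.43] under the floor. Lower in myeloid-like than in astrocyte-like cells were *Mt1* and *Mt3* in control (-2.30 and -1.04, 13% of all genes) and *Mt1*, *Mt2*, *Mt3* and *Cp* in WMI (12% of all genes). *Cp* stood the other way in control, at 3.22 [1.82 to 4.96] with 26 and 5 UMIs, and at -1.25 [-1.58 to -0.93] in WMI, so the order of these classes for ceruloplasmin was not the same in both libraries.

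Astrocyte-like cells exceeded excitatory neuron-like cells by more than 2-fold in all 3 metallothioneins, by log2 ratios of 2.69, 3.01 and 1.6 in control and 2.96, 2.89 and 2.54 in WMI for *Mt1*, *Mt2* and *Mt3*. In control these were the 3 members called of 7 (12.7% of all genes), and in WMI *Trf* (1.27) and *Cp* (4.40 [4.03 to 4.78]) were called as well (18.8%). Myeloid-like cells exceeded excitatory neuron-like cells in *Ftl1*, *Trf*, *Cp* and *Mt2* of 8 in control (16.1%) and in these and *Fth1* and *Mt1* in WMI (27.4%).

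Along the OL lineage, the genes differed in the stage at which they were highest. *Cp* was highest in the precursors. In control it stood at 40.5 CPM in OPC-like, 2.24 CPM in pre-OL-like and 2.56 CPM in mature OL-like cells, and in WMI at 53.3, 8.80 and 2.15 CPM. The ratio of pre-OL-like to OPC-like cells was -4.17 [-7.25 to -2.26] in control (65 and 2 UMIs, under the floor) and -2.60 [-3.36 to -1.90] in WMI, where it was called. Between these stages 8.12% of all genes were called higher and 8.94% lower in control, and 6.4% and 7% in WMI. The ratio of mature OL-like to OPC-like cells was -3.98 in control and -4.63 [-9.94 to -2.12] in WMI, where 27.4% of all genes were called lower (20.7% in control).

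*Trf* stood at the other end of the lineage. Its mature OL-like level was 3.13 [2.17 to 4.23] above that of OPC-like cells on the log2 scale in control and 3.37 [2.60 to 4.19] in WMI, under the floor in both. *Fth1* was called higher in mature OL-like than in pre-OL-like cells of both libraries, by 1.31 [0.71 to 1.94] in control and 1.08 [0.63 to 1.51] in WMI, where 12.2% and 9.01% of all genes were called higher and 11.9% and 19.6% lower. Against OPC-like cells it was called in control (1.14, 14.3% of all genes) and at 0.86 [0.42 to 1.29] not in WMI. *Ftl1* had no such slope, since the mature OL-like to OPC-like ratio was -0.24 [-1.75 to 1.10] in control and -0.41 [-1.38 to 0.45] in WMI. In WMI it was lower in mature OL-like than in pre-OL-like cells (-0.99 [-1.93 to -0.16]). In control, *Tfrc* stood at 39.8, 21.3 and 24.3 CPM over the 3 stages, and in WMI at 22.4, 25.5 and 8.62 CPM, with 4 UMIs in the mature OL-like cells. *Mt1* and *Mt3* of WMI were lower in mature OL-like than in OPC-like cells, by log2 ratios of -1.5 [-3.17 to -0.20] and -1.87 [-3.53 to -0.59] under the floor, with 5 mature OL-like UMIs each, and in control they had -0.73 [-2.52 to 0.77] and -0.31 [-1.09 to 0.43]. Among the stages, the heavy chain and transferrin were highest in mature OL-like cells and ceruloplasmin in OPC-like cells, in both libraries.

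**Figure D5:**
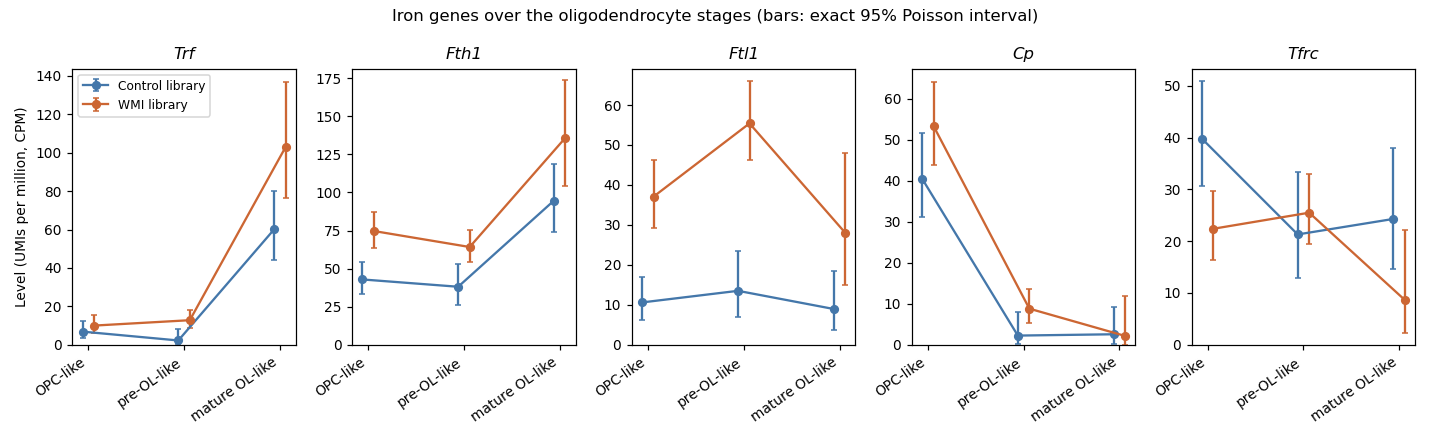
Levels in CPM of *Trf*, *Fth1*, *Ftl1*, *Cp* and *Tfrc* (vertical axis) in OPC-like, pre-OL-like and mature OL-like cells (horizontal axis) of each library, with exact 95% Poisson intervals as bars. *Cp* was highest in OPC-like cells and *Trf* in mature OL-like cells of both libraries, at 60.1 CPM in control and 103 CPM in WMI.

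Sex was compared within the WMI library, between female and male cells of each class. In excitatory neuron-like cells 5 members passed the floor of 100 UMIs, in astrocyte-like 3, in myeloid-like 2 and in inhibitory neuron-like 1. Of these, 0 were past 2-fold. In OPC-like, pre-OL-like and mature OL-like cells 0 passed, so that no member could be called. Under the floor some ratios were past 2-fold in either direction, as for *Trf* in mature OL-like (1.84 [0.60 to 3.22]) and pre-OL-like cells (-2.13 [-4.60 to -0.24]). Few of all genes were called, at 0.045% higher and 0.045% lower in OPC-like, 0.216% and 0.216% in pre-OL-like, 0.852% and 4.55% in mature OL-like and 0.0914% and 0.152% in astrocyte-like cells. Myeloid-like cells had 0.0876% and 0.109%, and the neuron-like classes 0.0324% and 0.0863% (excitatory) and 0.152% and 0.335% (inhibitory). Among male cells of both libraries, *Ftl1* stood at 30.7 and 136 CPM in myeloid-like cells and at 7.91 and 24.9 CPM in excitatory neuron-like cells, log2 ratios of 2.14 and 1.65 that were both called (beside 5.94% and 1% of all genes called higher, and 1.05% and 2.36% lower). Cells with transcripts of both sexes were left out of these values. In the other 5 classes the male cells held under 100 UMIs of *Ftl1*, with ratios of 1.01 to 2.16, and 0 members were called. All genes called higher and lower among male cells came to 0.567% and 0.567% in OPC-like, 0.867% and 0.991% in pre-OL-like, 2.59% and 5.92% in mature OL-like, 2.83% and 1.73% in astrocyte-like and 1.04% and 0.996% in inhibitory neuron-like cells.

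Other genes of iron, heme, zinc and the NRF2 pathway, 72 in 8 lists, were read with the same rule. In myeloid-like cells 35 passed the floor, 5 were called higher and 1 lower, where 6.99% of all genes were called higher and 1.1% lower. *Blvra* and *Blvrb*, biliverdin reductases downstream of heme oxygenase, stood at 19.0 and 39.4 CPM and at 12 and 44.3 CPM (log2 ratios 1.05 and 1.89). *Slc11a2*, the divalent metal transporter that moves iron out of endosomes, stood at 19.0 and 44.5 CPM (1.23 [0.64 to 1.87]). *Nfe2l2*, which encodes the stress factor NRF2, stood at 71.7 and 148 CPM (1.04), and *Gpx4*, the enzyme that reduces lipid peroxides, at 11.2 and 22.8 CPM (1.02). The zinc transporter gene *Slc39a12* was called lower (34.4 and 15.9 CPM, -1.12), and stood at 337 and 242 CPM in astrocyte-like cells. *Slc40a1*, the iron exporter ferroportin, stood at 64.0 and 91.1 CPM (0.51), *Hmox2* at 56.9 and 90 CPM (0.66) and the ferritin cargo receptor *Ncoa4* at 40.1 and 42.2 CPM (0.07). In cluster 11 alone *Slc40a1* stood at 62.4 and 68.0 CPM and *Nfe2l2* at 71.3 and 139 CPM.

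In astrocyte-like cells 29 of the 72 passed, 3 were called higher and 1 lower, beside 4.13% and 1.04% of all genes. *Bmp6*, a signal that raises hepcidin in the liver, stood at 5.49 and 27.8 CPM (2.34 [1.52 to 3.27]). The heme exporter gene *Flvcr1* stood at 27.0 and 75.4 CPM (1.48 [1.09 to 1.89]), and the cystine transporter gene *Slc7a11* at 194 and 440 CPM (1.19 [1.04 to 1.34]). *Lyrm4*, needed for iron-sulfur clusters, stood at 56.8 and 25.6 CPM (-1.15 [-1.56 to -0.75]). *Aco1* stood at 52.9 and 36.8 CPM (-0.53), *Ireb2* at 70.9 and 82.1 CPM (0.21), *Mtf1* at 25.5 and 38.7 CPM (0.60), and the zinc exporter gene *Slc30a1* at 8.23 and 9.91 CPM. The ferritin iron chaperones *Pcbp1* and *Pcbp2* stood at 6.66 and 13.1 CPM (17 and 41 UMIs) and at 102 and 113 CPM.

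In excitatory neuron-like cells 50 passed, and *Nfe2l2* (1.33 and 3.14 CPM, 1.24) was called higher and the antioxidant gene *Srxn1* (2.26 and 1.06 CPM, -1.09) lower, beside 1.29% and 2.27% of all genes. Without the clusters of 1 library *Srxn1* was under the floor, with a ratio of -0.53. Among the 14 that passed in OPC-like cells, and the 14 in pre-OL-like cells, 0 were called, and in inhibitory neuron-like cells 0 of 31.

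Genes with the most similar pattern were sought over 53 sets of cells (clusters by library, at least 50 cells) among 9787 genes, by Pearson's r of log2(CPM + 1). The sets share libraries and differ in depth, so that these values are descriptions. *Ftl1* went with *Grn* (0.93) and *Psap* (0.92), lysosomal protein genes, and *Fth1* with *Fau* (0.91) and *Gm10076* (0.90). *Trf* went with *Cd81* and *Lamp1* (both 0.87), *Tfrc* with *Las1l* (0.75) and *Zranb2* (0.73), *Cp* with *Sned1* (0.80) and *Slc38a2* (0.79), and *Hmox1* with the lysosomal gene *Hexa* (0.82) and *Anapc15* (0.81). *Mt1* went with *Clu* (0.84) and *Rpl38* (0.82), *Mt2* with *Mt1* (0.82) and *Dbi* (0.81), and *Mt3* with *Fabp5* (0.83) and *Cox7c* (0.80). Among the 9, *Ftl1* and *Fth1* had an r of 0.86, and *Tfrc* had values of -0.36 to 0.07 with the other 8.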

How the data were processed

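Both libraries were made from mouse cerebral cortex by droplet scRNA-seq. The authors counted UMIs per gene and barcode with Cell Ranger 6.1.1, and the deposited values are these UMI counts, not normalised. The submitters' processing notes name Seurat and mm9, whereas the gene identifiers match GENCODE M21 on GRCm38, which gave the coordinates. The control library held 10288 barcodes (66470806 UMIs) and the WMI library 8354 (60568639 UMIs). Barcodes with at least 1000 UMIs, at least 500 genes and at most 10% mitochondrial UMIs were kept, which removed 748 and 241, and 785 (8.23%) and 542 (6.68%) barcodes were removed as doublets by simulation at 0.8% per 1000 barcodes. Cells were integrated and clustered in R 4.3.3 with Seurat 5.3.0 (30 dimensions, 2000 features, resolution 0.8), which gave 33 clusters, 25 of them named. The 9 genes, the listed pathway genes, and cell-cycle and mitochondrial genes were left out of the features. The marker genes used for naming were not left out as a set, so that clusters and names are not independent. The thresholds for naming were set after the clusters were seen. Cells with *Xist* transcripts and no Y-linked ones were taken as female, and cells with Y-linked transcripts and no *Xist* as male. Cells with both were counted apart.

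The 9 genes and all lists were chosen with earlier results of these data known. UMIs were summed per class and library and compared as log2 ratios of CPM. With 1 library per group no p-value was computed. Intervals are exact (Poisson for CPM, Clopper-Pearson for shares, conditional binomial for ratios) and cover counting error only. Those of the ratios were also run on simulated Poisson counts, the model they assume, so that this run cannot show how they hold under spread between cells. Where either side of a ratio had a count of 0, no ratio was given. Named genes were the 9 members, pathway genes called past 2-fold, a few carriers and regulators of iron and zinc set in the design, and for each member the 2 genes of highest Pearson's r with at least 1000 UMIs. Alternatives were size factors from edgeR 4.0.16 and DESeq2 1.42.0, the mean of per-cell levels, no floor, no barcode filter, doublets kept, resolutions of 0.4 and 1.6, male cells, cells under 1% mitochondrial UMIs and, for 2 classes, no clusters of 1 library. Sums and intervals were computed in Python 3.11.15 (scipy 1.17.1, pandas 2.3.3, numpy 2.4.6), doublets with scikit-learn 1.9.0 and plots with matplotlib 3.10.9.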

Additional observations from a re-analysis of the deposited data

Results flagged for a closer look

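Unnamed clusters belong to none of the classes compared above, but their cells are part of the values over all cells. In some of those of the WMI library, signals above those of the named control classes with at least 50 cells were found. The 20 control endothelial-like cells are not among these classes, and had 40.4 CPM of *Ftl1* [8.34 to 118] and 121 CPM of *Fth1* [55.5 to 230] from 3 and 9 UMIs. Single control clusters were not compared either. Of these, shallow excitatory neuron-like cluster 2 had 212 CPM of *Fth1* [194 to 231], 45.9 CPM of *Ftl1* and 63.1 CPM of *Mt1*, so that its *Fth1* was well above every control class used here. Cluster 5 held 18 control and 998 WMI cells and was led by hemoglobin genes, *Ftl1*, mitochondrial genes and *Mt1*. Its WMI cells had 487 CPM of *Ftl1* [459 to 515], 12.5-fold the 38.9 CPM of control neuroblast-like cells, the highest of the control classes with at least 50 cells. They had 373 CPM of *Fth1* [349 to 398], against 94.7 CPM in control mature OL-like cells, and 162 CPM of *Mt1* [147 to 179], against 72.9 CPM in control astrocyte-like cells. Their median was 2115 UMIs, with 1.6% mitochondrial UMIs and 1460 CPM of hemoglobin.

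Cluster 17 held 1 control and 283 WMI cells and was led by *Cd74*, MHC class II genes and *S100a9*. Its WMI cells had 250 CPM of *Ftl1* [210 to 295] and 262 CPM of *Fth1* [222 to 308], at a median of 1884 UMIs and with 14.3 CPM of hemoglobin. This *Fth1* interval overlapped those of control endothelial-like cells and of control cluster 2. Clusters 5 and 17 were shallow and came almost wholly from the WMI library, so that cluster and library cannot be told apart, and their genes were not tested.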

How the results depend on the processing

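No paired analysis was possible because each group had 1 library. Of the main values under the alternatives, 206 kept their verdict and 30 moved. These values are counts of members, which could only be kept or moved, and a count of 0 that stayed 0 was taken as kept. A count that changed only slightly was taken as kept too, as when *Hmox1* joined the members past 2-fold higher in myeloid-like cells without the floor. The kept values are therefore not all unchanged. Without the floor of 100 UMIs the members past 2-fold higher were 4 in OPC-like cells (0 with it), 5 in pre-OL-like (1), 3 in mature OL-like (0, with 2 lower), 4 in astrocyte-like (2), 2 in excitatory (1) and 3 in inhibitory neuron-like cells (1). For the stages, without the floor, mature OL-like over OPC-like cells gave 2 higher and 2 lower in control and 1 higher and 5 lower in WMI, and pre-OL-like over OPC-like cells 2 lower in control. With doublets kept, 2 were higher in OPC-like and 2 in pre-OL-like cells, and mature OL-like over OPC-like cells gave 0 higher in control and 2 lower in WMI. Without the barcode filter the counts were 2, 2 and 3 in OPC-like, pre-OL-like and excitatory neuron-like cells. Among male cells, where most members fell under the floor, they were 0 in pre-OL-like, astrocyte-like and inhibitory neuron-like, 1 in myeloid-like and 2 in excitatory neuron-like cells. Under 1% mitochondrial UMIs the pre-OL-like count was 0, where *Ftl1* fell under the floor with 12 control and 67 WMI UMIs (13.7 and 49.5 CPM). With the mean of per-cell levels, excitatory neuron-like cells gave 0 higher and 1 lower (*Mt3*), and mature OL-like over OPC-like cells 1 higher in WMI. Without clusters of 1 library, a choice planned for these classes, the counts were 0 in myeloid-like and 3 in excitatory neuron-like cells. Where the set of cells or the weighting changed, the cause was not tested. Leaving out the unnamed clusters from all cells, and reading each cluster by itself, were chosen after seeing the data. Counts of a few UMIs limit *Hmox1* in every class and most genes in mature OL-like cells.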
